A study of Mus musculus with 10 samples.

Results

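Securin, encoded by Pttg1, and 9 genes of the mitotic cell cycle were followed in RNA of the right ventricle of 10 mice. The members are Pttg1, Espl1, Cdc20, Ccnb1, Ccnb2, Cdk1, Ccna2, Top2a, Mki67 and Birc5, and every probe set to which the array annotation gives 1 of these symbols was taken. That rule found 14 of the 22690 probe sets on the array, for 8 of the 10 genes; no probe set was listed for Espl1 or Ccnb1, and these were not analysed here. Pttg1 was chosen by its signals in trained and untrained mice, where its difference was among the most negative on the array, so that difference is given as a description with no test. The mitotic genes were added for their function.

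The groups were 4 trained plakoglobin (+/-) mice, 4 trained wildtype mice, 1 untrained plakoglobin (+/-) mouse and 1 untrained wildtype mouse, all of strain 129SV. Plakoglobin (Jup) is a protein of the junctions between heart muscle cells, and (+/-) mice carry 1 working copy. Each trained group held 2 males and 2 females aged 6 months, which swam 6 times per week in water of 35 °C for 5 min at first and 90 min at the end; both untrained mice were females aged 10 months. Training can therefore not be told apart from age, and each untrained group is 1 animal. Littermate pairs are described, but the mice of a pair are not named.

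Securin binds and holds back separase (Espl1), the protease that cuts the cohesin rings joining sister chromosomes. In mitosis Cdc20 activates the anaphase promoting complex, a ubiquitin ligase, which marks securin and the B-type cyclins for destruction, and separase is set free. Cyclins A2, B1 and B2 drive the kinase Cdk1, topoisomerase IIa (Top2a) untangles DNA, Birc5 (survivin) guides chromosome attachment and Mki67 coats mitotic chromosomes and marks cycling cells. Most heart muscle cells of adult mice have left the cell cycle, and cycling cells in the adult ventricle are mostly of other types. In RNA of a whole tissue, fewer cells of a type and less RNA per cell cannot be told apart.

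Many mitotic genes share short promoter elements, the TTTGAA element (known as CHR) and the CCAAT box. The RefSeq promoter table (build GRCm38.p6) gave a window of 300 bases, 250 before and 50 from the start site on, for 9 of the 10 members, not for Ccna2. Both motifs were searched on both strands, and no match of the first overlapped a match of the second. TTTGAA was in 6 of these 9 windows and CCAAT in 7, against 17.9% and 37.4% of all 32851 windows in the table. Both were in 6 of 9, against 6.95% of all windows. The windows of Pttg1 and Birc5 held neither, which says only that these letters are not there. That of Pttg1 lies at chr11:43425932-43426231 on the minus strand, around a start site 1482 bases inside the annotated gene. It is printed beside those of Cdc20 (chr4:118437294-118437593), Ccnb2 (chr9:70421505-70421804) and Cdk1 (chr10:69352863-69353162), all on the minus strand, because it differs from them in these letters. Each runs 5′ to 3′ along its gene, with both motifs in capitals (ATTGG is CCAAT read on the other strand).
Pttg1: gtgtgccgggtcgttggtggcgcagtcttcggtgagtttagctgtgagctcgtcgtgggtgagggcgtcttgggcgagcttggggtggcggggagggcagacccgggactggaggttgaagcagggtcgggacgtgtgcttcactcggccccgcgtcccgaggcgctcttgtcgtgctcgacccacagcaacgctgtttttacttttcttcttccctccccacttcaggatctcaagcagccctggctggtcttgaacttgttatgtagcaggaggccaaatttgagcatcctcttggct
Cdc20: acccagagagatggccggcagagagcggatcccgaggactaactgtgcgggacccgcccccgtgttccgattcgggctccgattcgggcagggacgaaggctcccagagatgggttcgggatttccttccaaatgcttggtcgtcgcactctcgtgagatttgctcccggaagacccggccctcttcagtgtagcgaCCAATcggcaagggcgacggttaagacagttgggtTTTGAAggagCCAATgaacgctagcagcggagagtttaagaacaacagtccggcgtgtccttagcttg
Ccnb2: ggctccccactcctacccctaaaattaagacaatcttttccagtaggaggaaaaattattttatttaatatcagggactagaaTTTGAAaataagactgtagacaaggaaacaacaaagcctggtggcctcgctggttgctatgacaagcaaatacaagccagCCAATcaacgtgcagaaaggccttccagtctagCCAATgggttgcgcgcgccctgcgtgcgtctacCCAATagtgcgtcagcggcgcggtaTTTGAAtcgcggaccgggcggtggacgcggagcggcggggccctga
Cdk1: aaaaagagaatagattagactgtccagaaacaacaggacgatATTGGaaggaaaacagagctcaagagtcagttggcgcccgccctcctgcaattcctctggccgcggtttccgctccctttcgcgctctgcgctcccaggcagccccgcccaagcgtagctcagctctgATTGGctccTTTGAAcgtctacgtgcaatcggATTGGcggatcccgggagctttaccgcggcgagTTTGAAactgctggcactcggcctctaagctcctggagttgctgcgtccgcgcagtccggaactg
In the Cdc20 window TTTGAA starts 18 bases before the start site and lies between a CCAAT at -53 and another at -8. In that of Cdk1 the TTTGAA at -15 follows a CCAAT at -48 on the other strand.

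Signals are linear MAS5 intensities, scaled by the authors to 1 common level per array, and a floor of 104 stands for the 10th percentile of all values. Array medians ranged from 897.85 to 1149.6. GAPDH control signal was uneven along the transcript on 3 arrays: the 3′ signal over the 5′ signal was 2.98 in trained plakoglobin (+/-) replicate 1, and trained wildtype replicates 1 and 2 had 2.50 and 17.8. On the other 7 arrays this ratio, a sign of RNA integrity, was 0.849 to 1.02. For actin it was 2.65 in trained plakoglobin (+/-) replicate 1, while trained wildtype replicates 1 and 2 had 3.05 and 1.29, so the second control did not single out that array. The actin ratio was 0.932 to 1.24 on the other 7. Jup read 2526 ± 680.1 in trained plakoglobin (+/-) mice and 3613 ± 653.9 in trained wildtype mice (SD, n = 4 each), but 3156.9 in the untrained plakoglobin (+/-) mouse and 2386.8 in the untrained wildtype mouse, so Jup did not follow the labels in the untrained pair. Of the tissue label only heart muscle was checked, by 6 cardiomyocyte markers, all of them tested. Their signals summed to between 1100720 and 1429820 in trained mice and to 1532870 and 1374640 in the untrained plakoglobin (+/-) and wildtype mice. These markers do not tell the right ventricle from other heart muscle, and that part of the label was not checked.

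Pttg1 signal was far lower in every trained mouse than in either untrained mouse on its 2 bright probe sets. On 1438390_s_at the trained plakoglobin (+/-) mice read 10339.7, 5834.6, 4554.5 and 5865.2 and the trained wildtype mice 6111.2, 2241.3, 3232.9 and 3618.9, against 73328.1 in the untrained plakoglobin (+/-) mouse and 55061.6 in the untrained wildtype mouse. Every trained mouse lay under either untrained one, as held for 4.61% of all tested probe sets, and the lower untrained signal was 5.33 times the highest trained one; the choice of the gene fixed this separation. Trained mice averaged 5225 ± 2496 (SD, n = 8) and spread over 4.61-fold between lowest and highest. With genotype and sex in the fit, the log2 difference of trained minus untrained mice was -4.05 (SE 0.32), a 16.6-fold lower signal. Both untrained mice were female, so with sex in the fit this value compares the 4 trained females with them. A fit to females only also gave -4.05.

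The second probe set gave the same picture with much less spread. On 1424105_a_at the trained plakoglobin (+/-) mice read 1222.1, 1510.7, 1453.2 and 1218.1 and the trained wildtype mice 1265.1, 1401.7, 1432.2 and 1429.7, against 21011.6 and 11963.4 in the untrained plakoglobin (+/-) and wildtype mice. All 8 trained mice lay within 1.24-fold of each other, and the lower untrained signal was 7.92 times the highest of them. The log2 difference was -3.53 (SE 0.26), or 11.6-fold lower in trained mice. By this difference the 2 probe sets ranked 2 and 6 from the lowest of 13576 tested.

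The remaining probe set, 1419620_at, was dim and did not separate the groups. It read 143.5, 221.5, 617.6 and 432.1 in trained plakoglobin (+/-) mice and 485.1, 175.0, 494.1 and 155.0 in trained wildtype mice, against 833.6 and 391.5 in the untrained plakoglobin (+/-) and wildtype mice. Only 4 of 8 trained mice lay below both untrained mice, and the log2 difference was -0.97 (SE 0.77). Its mean log2 signal of 8.39 was below the limit for testing of 9.37, and the value comes from a fit to all 22626 non-control probe sets. In the array maker's naming, _a_at marks a probe set matching several transcripts of 1 gene, _s_at one whose transcripts may be of different genes, and _x_at one with probes that may bind other sequences. Whether 1438390_s_at reads other transcripts was not tested.

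**Figure D1:**
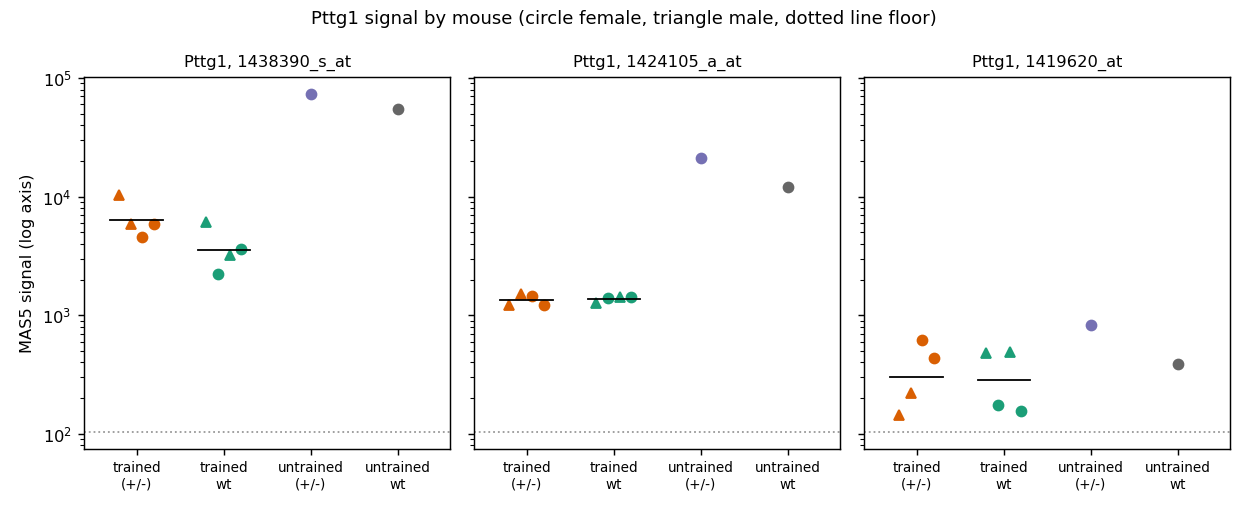
Signals of the 3 Pttg1 probe sets by mouse on a log axis, in trained plakoglobin (+/-), trained wildtype, untrained plakoglobin (+/-) and untrained wildtype mice; circles are females, triangles males, black lines geometric means of 4 mice, and the dotted line is the floor of 104. On 1438390_s_at and 1424105_a_at the trained mice lie at 10339.7 or less and 1510.7 or less, under either untrained mouse, and on 1419620_at they overlap.

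None of the mitotic genes showed a difference of that size between trained and untrained mice, and none passed the test. Pttg1 was chosen for the size of this difference, so almost any other gene would fall short of it. Of the 8 mitotic probe sets above the floor in at least 5 mice, 5 were higher and 3 lower in trained mice, with a median log2 difference of 0.29 and a range from -1.14 for Top2a to 0.78 for Cdk1. The median over all tested probe sets was -0.0022. By limma 0 of the 3 mitotic probe sets that passed the filter on dim signals were called, where 0.626% of all 13576 were, and 0 of the other 5 in the fit to all probe sets, where 0.261% were. The lowest adjusted p was 0.586, and 1 of the 8, Top2a, had an unadjusted p under 0.05, as did 8.68% of the tested and 8.5% of all probe sets.

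Cdc20, the activator that turns the anaphase promoting complex on securin, read 1358.7, 1875.7, 1932.7 and 2150.3 in trained plakoglobin (+/-) mice and 2270.3, 885.6, 2341.8 and 1290.2 in trained wildtype mice on 1416664_at, against 1863.7 and 1278.7 in the untrained plakoglobin (+/-) and wildtype mice. Trained mice lay on both sides of the untrained pair, and the log2 difference was -0.06 (SE 0.38; limma, adjusted p = 0.986). A second Cdc20 probe set, 1439377_x_at, read 654.6 to 1151.1 in trained mice against 1078.1 in the untrained plakoglobin (+/-) and 426.6 in the untrained wildtype mouse, a difference of 0.48 (SE 0.44). Another, 1439394_x_at, was under the floor in all 10 mice.

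Ccna2, the cyclin of S phase and mitotic entry, read 1409.2, 849.6, 1541.2 and 1020.1 in trained plakoglobin (+/-) mice and 1010.1, 849.1, 825.1 and 598.6 in trained wildtype mice on 1417910_at, against 888.1 and 883.6 in the untrained plakoglobin (+/-) and wildtype mice. Here 4 trained mice lay above and 4 below the untrained pair, and the log2 difference was 0.09 (SE 0.39; limma, adjusted p = 0.98). The other Ccna2 probe set, 1417911_at, just missed the filter and read 384.5 to 1166.6 in trained mice against 280.5 and 774.1 in the untrained plakoglobin (+/-) and wildtype mice, a difference of 0.63 (SE 0.64). Within the 8 trained mice r between the 2 Ccna2 probe sets was 0.081.

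Cdk1, the kinase that starts mitosis, read 677.6, 1077.1, 1141.6 and 209.5 in trained plakoglobin (+/-) mice and 551.1, 43.0, 1653.7 and 1000.1 in trained wildtype mice, against 198.5 and 269.5 in the untrained plakoglobin (+/-) and wildtype mice. It was above both untrained mice in 6 of 8 trained mice, but the lowest of all was trained wildtype replicate 2, the array of highest GAPDH ratio, and the log2 difference was 0.78 (SE 1.03; limma, adjusted p = 0.905). Without that array it was 1.51, without trained plakoglobin (+/-) replicate 3 it was 0.21 and without trained wildtype replicate 4 it was 0.25. The part of the GAPDH ratio in this spread was not tested.

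Ccnb2, its partner cyclin, read 58.0, 114.5, 95.5 and 439.6 in trained plakoglobin (+/-) mice and 532.6, 52.5, 525.6 and 40.5 in trained wildtype mice, against 98.5 and 104.5 in the untrained plakoglobin (+/-) and wildtype mice. The signal stood near the floor in 7 of 10 mice and at 439.6 to 532.6 in 3 trained mice, 2 of them male wildtype. The log2 difference was 0.52 (SE 0.87; limma, adjusted p = 0.935), and it was -0.18 without trained plakoglobin (+/-) replicate 4.

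Top2a was the mitotic gene nearest to Pttg1 in direction. On 1454694_a_at it read 648.1, 393.5, 585.1 and 347.5 in trained plakoglobin (+/-) mice and 235.0, 258.0, 269.5 and 486.6 in trained wildtype mice, against 764.1 and 1022.1 in the untrained plakoglobin (+/-) and wildtype mice. Every trained mouse lay under either untrained one, as held for 4.07% of all probe sets, but the gap was small: the lower untrained signal was 1.18 times the highest trained one. The log2 difference of -1.14 (SE 0.50) did not pass (limma, adjusted p = 0.586), and it was -0.60 without the untrained wildtype mouse and -1.69 without the untrained plakoglobin (+/-) mouse. The other Top2a probe set was under the floor in 9 of 10 mice.

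Mki67, the marker of cycling cells, read 654.1, 1140.6, 370.0 and 245.0 in trained plakoglobin (+/-) mice and 346.5, 134.0, 260.0 and 331.5 in trained wildtype mice, against 338.0 and 465.6 in the untrained plakoglobin (+/-) and wildtype mice. Its groups overlapped, and the log2 difference was -0.66 (SE 0.59; limma, adjusted p = 0.846), or 0.09 without the untrained wildtype mouse and -1.40 without the untrained plakoglobin (+/-) mouse. Birc5 was under the floor in 6 mice and read at most 131.5 in a trained and 143.5 in an untrained mouse, so no difference is given.

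**Figure D2:**
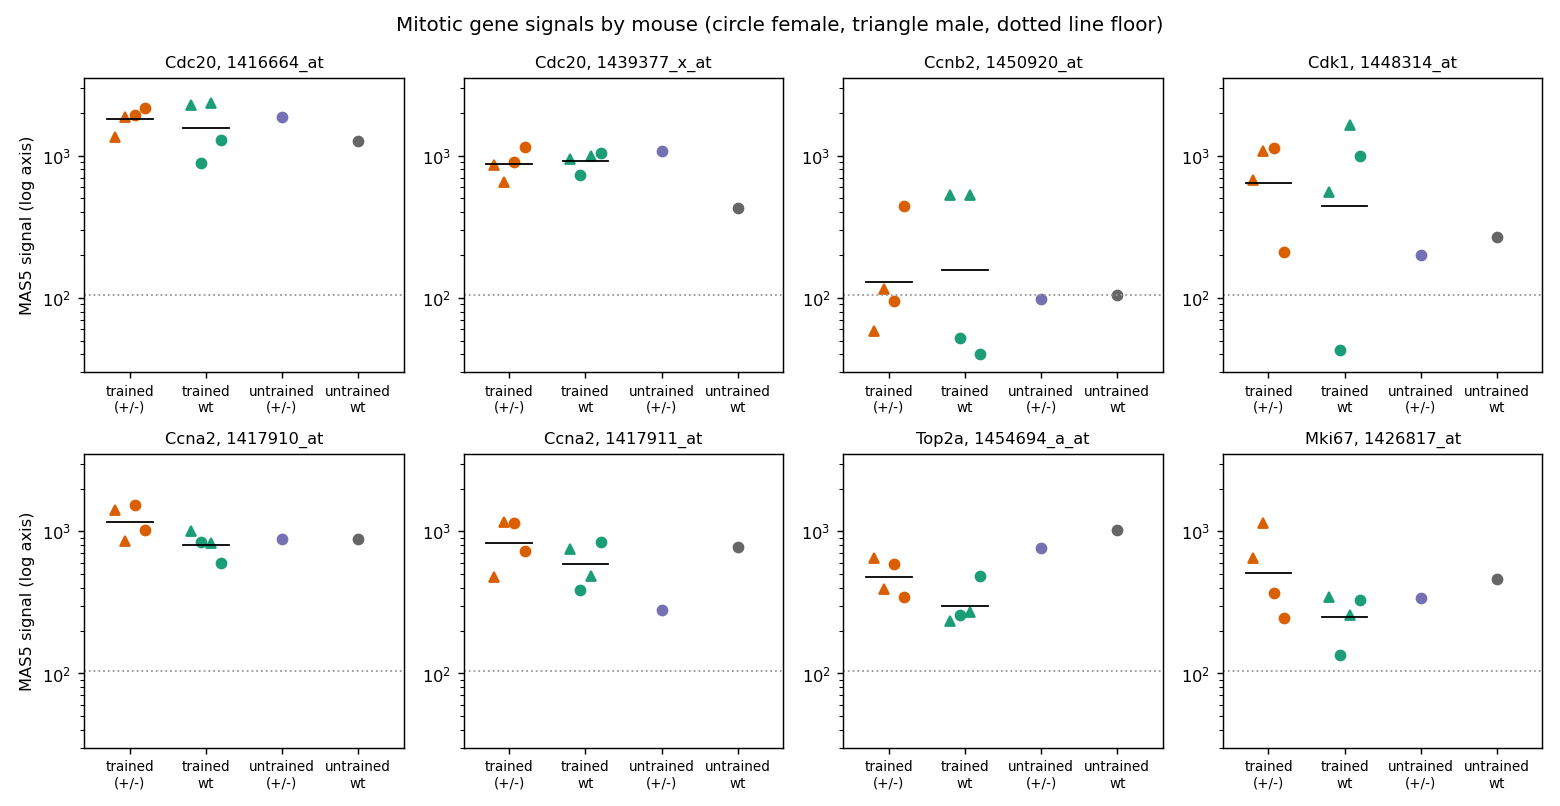
Signals of the 8 mitotic probe sets above the floor in at least 5 mice, by mouse on a log axis, in the same groups and symbols as for Pttg1, with black lines for geometric means of 4 mice and a dotted line for the floor of 104. Top2a is the panel in which the 8 trained mice lie under either untrained mouse; Cdk1 and Ccnb2 spread most among trained mice.

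The genotype comparison within trained mice did not choose the members, and no member passed the test. On Pttg1 1438390_s_at trained plakoglobin (+/-) mice averaged 6649 ± 2535 and trained wildtype mice 3801 ± 1646 (SD, n = 4 each), a log2 difference of 0.83 (SE 0.28), with an unadjusted p of 0.0141 in limma and an adjusted p of 1. The ranges overlapped. Pttg1 1424105_a_at gave 1351 ± 153 in trained plakoglobin (+/-) mice and 1382 ± 79.3 in trained wildtype mice (SD, n = 4 each), a log2 difference of -0.04 (SE 0.21). Neither probe set passed, and whether their genotype values differ was not tested.

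The mitotic genes leaned the same way as 1438390_s_at, with 6 of 8 probe sets higher in plakoglobin (+/-) mice and a median of 0.36, against 0.01 over all tested probe sets. Only 3 of the 8 passed the filter, while the 0.01 is over probe sets that did. Mki67 averaged 602.4 ± 397.5 in trained plakoglobin (+/-) mice and 268 ± 97 in trained wildtype mice (SD, n = 4 each), a log2 difference of 1.02 (SE 0.44). Top2a had 0.68 (SE 0.37), which was 0.17 without the 3 arrays of high GAPDH ratio and 0.33 with the floor at the 25th percentile, and Ccna2 1417910_at had 0.54 (SE 0.32). None passed: by limma 0 member probe sets were called, 0 of the 8 mitotic ones and 1 of the 3 of Pttg1 had an unadjusted p under 0.05, and every adjusted p was 1. The share called over all 13576 tested probe sets was 0.0%, and over all 22626 it was 0.0%, while 2.01% and 3.47% had an unadjusted p under 0.05.

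No member passed the test between females and males either. Pttg1 1438390_s_at averaged 4070 ± 1528 in trained females and 6380 ± 2941 in trained males (SD, n = 4 each), a log2 difference of -0.61 (SE 0.28; limma, adjusted p = 0.571). Without the 3 arrays of high GAPDH ratio this difference was -0.03. Mki67 averaged 270.1 ± 104.7 in trained females and 600.3 ± 397.9 in trained males (SD, n = 4 each), a difference of -1.02 (SE 0.44; limma, adjusted p = 0.645), and Cdk1 had -1.19 (SE 0.90), which was -0.46 without trained wildtype replicate 2 and -1.76 without trained wildtype replicate 4. By limma 0 member probe sets were called, against 0.0516% of the tested and 0.00884% of all probe sets. At an unadjusted p under 0.05 there were also 0, against 8.82% and 7.78%.

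**Figure D3:**
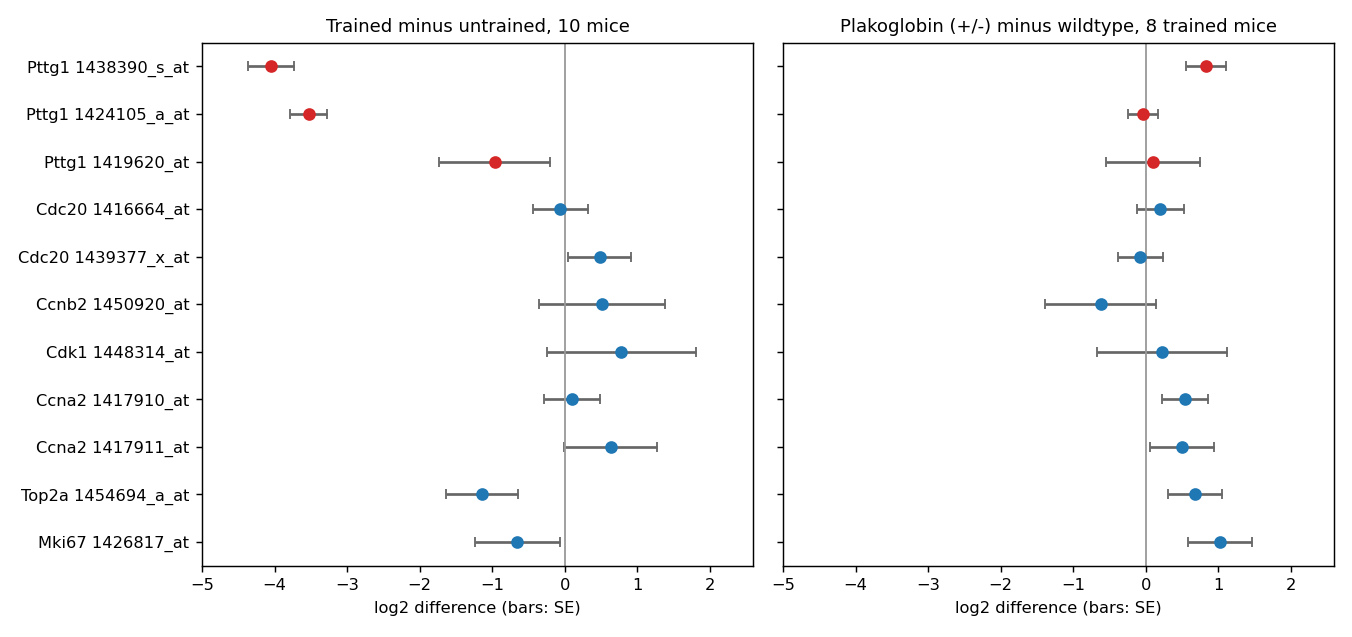
Log2 differences with SE for the 3 Pttg1 probe sets (red) and 8 mitotic probe sets (blue), for trained minus untrained mice (left, 10 mice) and plakoglobin (+/-) minus wildtype among trained mice (right, 8 mice). On the left 2 probe sets of Pttg1, the gene chosen by this difference, lie at -4.05 and -3.53, and the mitotic probe sets lie between -1.14 and 0.78. On the right all lie between -0.62 and 1.02.

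In the untrained pair Pttg1 was higher in the plakoglobin (+/-) mouse on all 3 probe sets, with 73328.1 against 55061.6, 21011.6 against 11963.4 and 833.6 against 391.5 in the wildtype mouse. Whether the genotype difference itself differed between trained and untrained mice was tested with an interaction term. It was 0.42 (SE 0.62) for 1438390_s_at and -0.85 (SE 0.41) for 1424105_a_at, each with an adjusted p of 1 in limma. By limma 0 member probe sets were called, against 0.0% of the tested and 0.292% of all probe sets, and 0 had an unadjusted p under 0.05, against 3.2% and 5.52%. With 1 untrained mouse per genotype only very large differences could pass.

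Whether Pttg1 moves with the mitotic genes from mouse to mouse was examined in the 8 trained mice, which leaves out the difference that chose Pttg1. Against 1438390_s_at all 8 mitotic probe sets had a positive Pearson r, with a median of 0.314, where 50.6% of the tested probe sets had a positive r and their median was 0.0079. Mki67 had r = 0.706 (exact permutation p = 0.049, adjusted p = 0.599; Spearman rho 0.571, exact permutation p = 0.151; n = 8). Next came Ccna2 1417910_at with r = 0.556 (exact permutation p = 0.147, adjusted p = 0.663; rho 0.643, p = 0.0962) and Top2a with r = 0.489 (exact permutation p = 0.222, adjusted p = 0.712; rho 0.286, p = 0.501). The other 5 lay between 0.043 and 0.36, and none of the 8 passed when adjusted over 13579 probe sets. An r at least as high as that of Mki67 was found for 3.73% of the tested probe sets, as high as that of Ccna2 for 10.9% and as high as that of Top2a for 14.9%.

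The 3 highest of these correlations were smaller once group means were taken out. Taken over deviations from the means of genotype and sex, r was 0.121 for Mki67, 0.185 for Ccna2 1417910_at and 0.325 for Top2a, and lay between -0.0916 for Cdk1 and 0.547 for Cdc20 1439377_x_at over the 8 probe sets. They also rest in part on 2 mice. The mice farthest from the median of Pttg1 were trained wildtype replicate 2 and trained plakoglobin (+/-) replicate 1, both arrays of high GAPDH ratio. Without them r was 0.384 for Mki67, 0.39 for Ccna2 1417910_at, -0.184 for Top2a and -0.665 for Cdk1 (n = 6), so the relation to Top2a did not hold and that to Cdk1, 0.236 over 8 mice, turned. The 5 arrays of low GAPDH ratio are too few for a value of their own.

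The Pttg1 probe sets were also compared with each other within trained mice. Between 1438390_s_at and 1424105_a_at r was -0.581 (exact permutation p = 0.133, adjusted over 3 pairs 0.399; rho -0.476, p = 0.243; n = 8; -0.476 without the 2 farthest mice), although both were far lower in trained than in untrained mice. Taken against 1424105_a_at, the mitotic probe sets had r between -0.475 for Cdc20 1439377_x_at and 0.425 for Cdk1. Among the mitotic genes themselves 18 of 26 pairs of probe sets of different genes had a positive r, with a median of 0.209 and a range from -0.663 for Ccnb2 with Top2a to 0.723 for Cdc20 with Ccnb2.

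**Figure D4:**
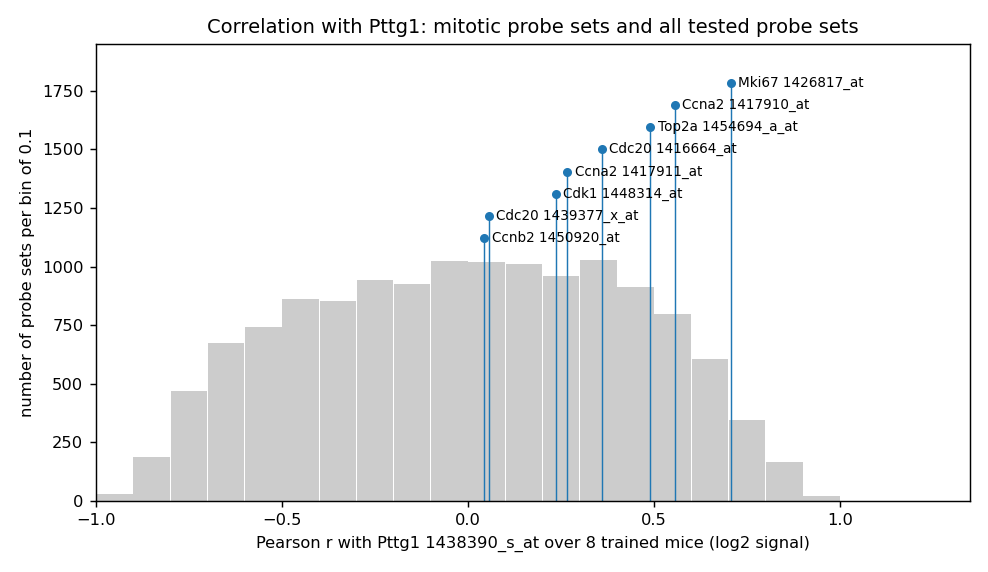
Pearson r with Pttg1 1438390_s_at over the 8 trained mice on log2 signal: grey bars count the tested probe sets per bin of 0.1, and blue lines mark the 8 mitotic probe sets, their heights chosen only to separate the names. All 8 lie above 0, with Mki67 highest at 0.706, inside the spread of all tested probe sets.

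The genes whose pattern was most like that of Pttg1 1438390_s_at were named by the highest r. Over the 8 trained mice they were Ywhae, which encodes a 14-3-3 protein (r = 0.965), Nrep (0.962), Prkag1, a subunit of the AMP-activated kinase (0.954), Gpsm1 (0.951) and 2310061I04Rik (0.949). Over all 10 mice, where the difference between trained and untrained mice sets the order, they were H2-Ab1, a class II antigen-presenting molecule (0.963), Afg1l (0.96), Zfp386 (0.954), Lynx1 (0.953) and Lgr6, a receptor for R-spondins (0.9525). These 5 were lower in trained mice by log2 differences of -1.98 for H2-Ab1, -1.43 for Zfp386, -1.04 for Lynx1, -0.94 for Lgr6 and -0.54 for Afg1l, all smaller than those of the 2 bright Pttg1 probe sets. Candidates were tested probe sets with 1 symbol that is no member, so the mitotic members could not appear here. No gene of the cell cycle lists below is among the 10. Only 60 of their 101 genes were candidates, so no conclusion is drawn from this.

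None of the tested probe sets of the genes next to Pttg1 on chromosome 11 had a difference near that of its bright probe sets. The choice of Pttg1 by this difference made that likely for any gene. The 5 nearest protein coding genes with a probe set on either side, by the order in GRCm38.p6, were Hmmr, Nudcd2, Ccng1, Gabra6 and Gabrb2 on one side and Slu7, Fabp6, Ttc1, Adra1b and Il12b on the other. Of their 24 probe sets 16 were tested, 8 higher and 8 lower in trained mice, and 0 were called, against 0.626% of all (limma, lowest adjusted p = 0.589). Slu7, a splicing factor and the nearest neighbour on that side, read 3201.9 to 5115.1 in trained mice on its brightest probe set, against 4105.0 in the untrained plakoglobin (+/-) and 3817.5 in the untrained wildtype mouse, a log2 difference of -0.05 (SE 0.24). Ccng1, a p53-induced cyclin, had 0.28 (SE 0.25) on its brightest. The lowest tested value was -0.91 (SE 1.05) for Adra1b, an adrenergic receptor, and the highest 1.50 (SE 0.74) for Hmmr, a spindle protein. Other tested Hmmr probe sets had 0.74 and 0.42.

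**Figure D5:**
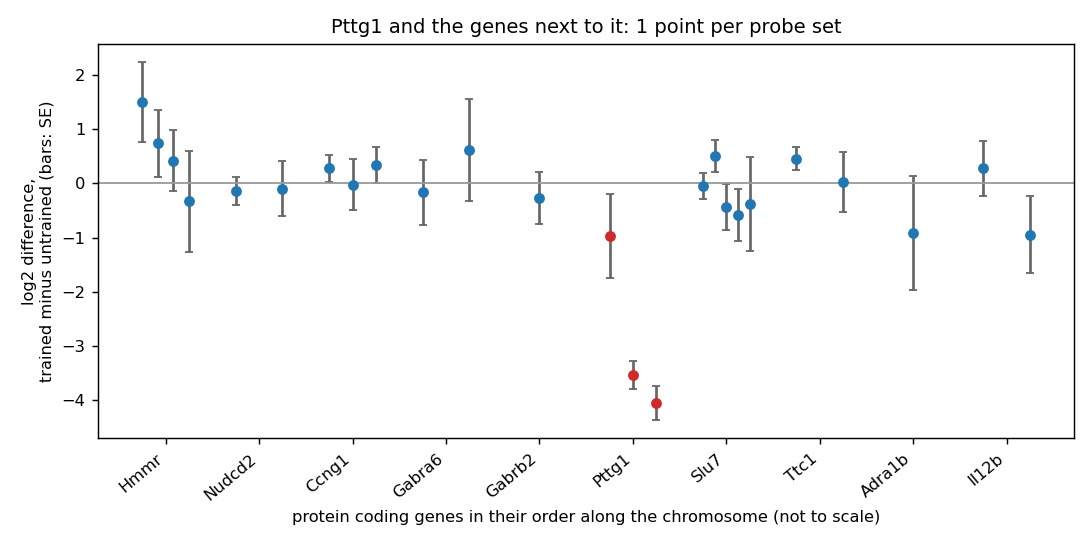
Log2 differences of trained minus untrained mice with SE for Pttg1 (red) and the genes on either side of it (blue), 1 point per probe set, in chromosome order and not to scale; probe sets at or under the floor in more than 5 mice are left out, which removes Fabp6. The blue points lie between -0.95 and 1.50 and 2 red points at -3.53 and -4.05.

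Other genes of the pathway were taken from 6 lists of 101 genes, of which 60 were tested by their brightest probe set. By training 0 of the 60 rose and 1 fell, where 0.273% of all tested probe sets rose and 0.354% fell, and by genotype and by sex 0 were called. The gene that fell was Ccnd1, the cyclin D1 of the G1 phase. It read 3317 ± 824.4 in trained mice (SD, n = 8), against 6605.3 in the untrained plakoglobin (+/-) and 7143.9 in the untrained wildtype mouse. All 8 trained mice lay under either untrained one, as held for 4.61% of all tested probe sets. The log2 difference was -1.37 (SE 0.22), with an adjusted p of 0.015 in limma. This call was lost without either untrained mouse (adjusted p = 0.138 without the plakoglobin (+/-) and 0.206 without the wildtype one), without trained plakoglobin (+/-) replicate 4 (0.0568) without trained wildtype replicate 4 (0.0533) and without sex in the fit (0.119).

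Of the mitotic kinases and spindle genes 15 of 29 on the array were tested, with 7 higher and 8 lower in trained mice and a median of -0.06. Hmmr had 1.50 (SE 0.74), Kif2c, a microtubule-depolymerising motor, -1.18 (SE 0.46), Racgap1, of the cell division furrow, 0.99 (SE 0.45) and Cdc25b, a phosphatase that activates Cdk1, 0.96 (SE 0.44), and none passed. The sizes for Hmmr, Racgap1 and Kif2c depended on which untrained mouse was kept, and Hmmr also changed sign. Cdc25b did not share this and stayed between 0.83 and 1.09 whichever mouse was dropped. Without the untrained plakoglobin (+/-) mouse Hmmr had -0.11, Racgap1 0.22 and Kif2c -1.64, and without the untrained wildtype mouse they had 3.11, 1.76 and -0.72; Kif2c had -0.44 without sex in the fit. Of 10 S phase genes tested 7 were higher, with a median of 0.17. Gmnn, geminin, which blocks renewed firing of origins, had 0.53 (SE 0.23) and Mcm3, of the replicative helicase, -0.71 (SE 0.52), or -0.39 without the untrained wildtype mouse. Of 12 G1 cyclins and inhibitors 7 were lower, with a median of -0.07.

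Genes that act with securin gave no call either. Of 9 cohesin genes tested 7 were higher in trained mice, with a median of 0.15; Nipbl, the cohesin loader, had 0.58 (SE 0.32) and Esco1, which acetylates cohesin, -0.75 (SE 0.46). Without the untrained plakoglobin (+/-) mouse they had 0.19 and -1.46, and without the untrained wildtype mouse 0.98 and -0.04. Of 11 subunits and activators of the anaphase promoting complex 7 were higher, with a median of 0.07, and the subunit Anapc4 had 0.54 (SE 0.18; limma, adjusted p = 0.365). The 3 tested genes of the list of Pttg1 partners and reported targets, Pttg1ip, Vegfa and Sp1, lay between 0.05 and 0.27.

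Markers of other cells were set beside these values. Of the leukocyte markers 7 of 8 tested were lower in trained mice, with a median of -0.64 and 0 called, and their summed signal lay between 26239.2 and 44916.4 in trained mice, against 44301.0 in the untrained plakoglobin (+/-) and 45674.8 in the untrained wildtype mouse. Endothelial markers were lower for 5 of 6 with a median of -0.15, and fibroblast markers for 5 of 6 with a median of -0.34. The cardiomyocyte markers were also lower for 5 of 6, with a median of -0.11. The endothelial sum was 17782.9 to 23610.0 in trained mice, against 26177.2 and 21948.1 in the untrained plakoglobin (+/-) and wildtype mice. Of 4 lung markers 2 were tested, both lower with a median of -0.75. Scgb1a1, of airway cells, was at the floor in 2 mice, while Sftpc, Sftpb and Sftpa1 were above it in every mouse. Smooth muscle markers were higher for 2 and lower for 3 of 5, with 0 called. Of 3 atrial markers Myl4 was tested, with a log2 difference of 0.19 (SE 0.28). It read 1666.2 to 3234.4 in trained mice, against 1448.2 in the untrained plakoglobin (+/-) and 1905.2 in the untrained wildtype mouse. Atrial Myl7 was at the floor in 3 mice and Sln in 1. The part of these cells in the Pttg1 difference was not tested.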

How the data were processed

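Each mouse has 1 array of deposited MAS5 intensity values (version 5.0, per the submitters' processing notes) on a linear scale, without detection calls. Arrays shared 1 trimmed mean (2% dropped at either end) within rounding, so the authors had scaled them. Values under 104, the 10th percentile, were set to 104 before log2. Of 22626 probe sets without the 64 controls, the 13576 whose mean reached the 40th percentile were tested, and members under it were read from a fit to all. Probe sets at or under the floor in more than 5 of the 10 mice were not fitted. Symbols came from the array annotation, which gives 1 symbol to 20393 probe sets, several to 691 and none here to 1606.

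Models were fitted with limma 3.58.1 (intensity trend) in R 4.3.3, with p values two-sided and adjusted by Benjamini-Hochberg over all probe sets of the fit, at a threshold of 0.05. Training was fitted over 10 mice with genotype and sex, and genotype and sex over the 8 trained mice. The interaction was fitted over 10 mice with sex. Both untrained mice were female, so training differences fitted with sex rest on the females, and trained males add only to the estimate of spread. Correlations were tested two-sided by all 40320 pairings of 8 mice. The script was tested on simulated data. Array number limits the precision, and p values measure only the spread between these mice. Alternatives were other normalizations, floors, filters, eBayes settings and terms, and each mouse or the 3 arrays of GAPDH ratio above 2 left out.

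The members and lists were chosen with earlier results of these data known. Named are all member probe sets, the 5 genes of highest r with Pttg1 over 8 and over 10 mice, the 5 genes on either side of Pttg1, and up to 4 genes per list with the largest change by training.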

Additional observations from a re-analysis of the deposited data

Results flagged for a closer look

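For Ccnb2 1450920_at the value of trained plakoglobin (+/-) replicate 4, 439.6, was far from the rest of its group by Dixon's criterion. The criterion was taken on log2 signal with values under 104 set to 104. The others read 58.0, 95.5 and 114.5, of which 2 lay under the floor and so stood at the same value. The flag rests on this floor, and the criterion was not taken without it. This group was 1 of 22 groups of 4 examined, and chance picks out about 1 group in 20.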

How the results depend on the processing

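Counts of called members, Pttg1 left out by training, were 0 in every comparison under every alternative run. Apart from the fit to all probe sets, these counts cover only the member probe sets that passed the filter of the alternative. The Pttg1 differences of trained minus untrained mice kept their sign in all of them; with each mouse left out they ranged from -4.26 to -3.84 on 1438390_s_at, from -3.96 to -3.11 on 1424105_a_at and from -1.47 to -0.47 on 1419620_at. The Cdc20 1416664_at difference by training turned to 0.125 without sex in the fit, 0.126 without the 3 arrays of high GAPDH ratio and 0.18 with that ratio as a covariate, and Ccnb2 turned to -0.056 with no floor and a pseudocount of 1. The genotype difference of Pttg1 1424105_a_at turned to 0.13 with all 10 mice in 1 fit. With the floor at the 25th percentile r with Pttg1 was -0.0038 for Ccnb2 and -0.0385 for Cdk1; over deviations from the means of genotype and sex it was -0.0916 for Cdk1 and smaller by over 1.5 times for Mki67, at 0.121, Ccna2 1417910_at, at 0.185, and Top2a, at 0.325. Against the other bright Pttg1 probe set it was -0.102 for Cdc20 1416664_at, -0.475 for Cdc20 1439377_x_at, -0.402 for Ccnb2 and -0.376 for Ccna2 1417910_at. Without sex in the fit the training difference was 1.37 for Cdk1 and -0.15 for Mki67, which had -0.18 with the floor at the 25th percentile. The causes were not tested.

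With each mouse left out in turn, training differences that changed sign ranged from -0.24 to 0.17 for Cdc20 1416664_at, -0.23 to 1.19 for Cdc20 1439377_x_at, -0.18 to 0.82 for Ccnb2, -0.17 to 0.36 for Ccna2 1417910_at, -0.35 to 1.61 for Ccna2 1417911_at, -1.40 to 0.086 for Mki67 and -0.11 to 3.11 for Hmmr. Cdk1, which kept its sign, ranged from 0.21 to 1.51. Leaving out a trained male could not change any training difference, since sex was in the fit and both untrained mice were female. The genotype difference of Pttg1 1424105_a_at ranged from -0.11 to 0.023. Correlations with Pttg1 ranged from -0.262 to 0.737 for Cdc20 1416664_at, -0.328 to 0.252 for Cdc20 1439377_x_at, -0.208 to 0.346 for Ccnb2, -0.49 to 0.446 for Cdk1 and -0.178 to 0.741 for Ccna2 1417911_at.

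The training calls over all probe sets numbered 85, and 225 without the arrays of high GAPDH ratio, 34 without the untrained wildtype mouse, 10 without the untrained plakoglobin (+/-) mouse, and 50 to 53 without trained plakoglobin (+/-) replicate 3 or 4 or trained wildtype replicate 4. The 7 sex calls ranged from 1 to 17, the 0 interaction calls from 0 to 66 (fit to all probe sets), and genotype calls were 0 throughout. No paired analysis was possible because the labels give no shared numbers and name no littermates. Untrained groups of 1 leave training to 2 animals, the interaction could not be fitted without either, and the correlations were not run without the 3 arrays of high GAPDH ratio. Signals near the floor limit Ccnb2, Birc5 and the dim Top2a and Cdc20 probe sets. Cdk1, Top2a 1454694_a_at, Mki67 and Ccna2 1417911_at were also below the filter. Their mean log2 signals were 8.95, 8.81, 8.51 and 9.33, against a limit of 9.37. Without detection calls, a difference in such dim signals could go unseen.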

Other observations

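By sex the mitotic kinases and spindle genes leaned to 1 side: 12 of 15 tested were lower in trained females than in trained males, with a median log2 difference of -0.34, against -0.01 over all tested probe sets. Kif2c had -1.47, Nek2, a kinase of the centrosome, -1.44, and Prc1, which bundles the central spindle, -0.94, while the mitotic kinase Plk1 had 0.79. None was called, where 0.0516% of all tested probe sets were, and these 4 genes were chosen after their values were seen. Nek2 read 91.0, under the floor of 104, in its lowest trained mouse. Whether the lean of the 15 genes holds when the 3 arrays of GAPDH ratio above 2 are dropped was not examined. The list is 1 of 6 and is named for this lean. By sex 9 of 11 anaphase promoting complex genes, 7 of 9 cohesin genes and 6 of 10 S phase genes were higher in females. Lower in females were 7 of 12 G1 genes and 2 of 3 Pttg1 partners and targets. The leukocyte markers were lower in females for 8 of 8 tested, with a median of -0.34, and 0 were called. The part of these cells was not tested.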
